A study of Bubalus bubalis with 6 samples.

Results

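The host genes described here are the genes of the ubiquitin system that gave rise to circular RNAs (circRNAs) in buffalo subcutaneous adipose tissue. They were taken by symbol alone, as the circRNAs with a single host symbol beginning with USP, OTUD, UBE2, UBE4, UBR, FBXO, FBXL, FBXW, CUL, KLHL, TRIM or RNF. The rule found 110 host genes of 4000 with a single symbol, which produced 415 of the 14990 circRNAs in the deposited table, used here without a filter on reads. No expression value entered the choice. The samples were 3 young (6-month-old) and 3 adult (30-month-old) Chinese swamp buffaloes, each with 1 rRNA-depleted library from adipose tissue taken at slaughter. All animals came from 1 farm with like feeding, and their sex was not given in the sources used here. The comparison of young with adult animals asked which RNAs change as the fat depot matures. Buffalo reads had been aligned to the cattle genome (UMD3.1), so positions below are cattle positions.

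Ubiquitin is a small protein that is attached to other proteins in a relay. An E1 enzyme activates it, an E2 enzyme carries it and an E3 ligase chooses the substrate, while deubiquitinases take it off again. Chains of ubiquitin send many proteins to the proteasome, and in fat cells the adipogenic regulator PPARG and parts of the insulin signal are turned over in this way. A circRNA forms when a splice donor is joined to an acceptor upstream of it, and the closed loop has no free end for exonucleases. It is seen in sequencing only through reads that cross the back-spliced junction. Reads from within the loop look like those of the linear mRNA and can count in the mRNA level of the host gene, so the measures are not fully separate.

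The libraries held 10745 to 17680 back-spliced reads each, and the 415 circRNAs took 2312 of them, or 2.78% of all. The share in young replicates 1, 2 and 3 was 3.105%, 2.17% and 2.82%. In adult replicates 1, 2 and 3 it was 2.78%, 2.63% and 3.24%. The exact 95% binomial intervals spanned 1.92% to 3.41% in the young and 2.39% to 3.59% in the adult libraries, and they cover counting error only. The age groups thus overlapped in the share of back-splicing that fell on ubiquitin system genes. The circRNA level used below is the back-spliced read count times the scaling factor of its library. Summed over all members it was 762 ± 110 (SD, n = 3) in young and 678 ± 34.3 (SD, n = 3) in adult tissue.

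The tissue differed between the ages in its cell type markers, measured as summed FPKM (fragments scaled by transcript length and library depth). The 5 adipocyte markers that could be named summed to 373 to 2326 in young and 4691 to 8157 in adult libraries. LPL, the lipase that frees fatty acids from circulating fat, and DGAT2, which makes triglyceride, rose and made up most of the adult sums. CIDEC, PPARG and PLIN4 overlapped between the ages and did not pass the test. Endothelial markers (7 named, 2 rose) summed to 171 to 371 and 415 to 465. Macrophage markers (4 named, CD163 fell) summed to 188 to 205 and 63.4 to 102. The 2 smooth muscle and pericyte markers went in opposite directions. Their sum, 43.6 to 136 and 16.9 to 26.4, was mostly MYH11, which fell. NOTCH3 was at 3.37 to 6.00 FPKM in young and 6.81 to 8.14 FPKM in adult libraries and did not pass the test. Stromal markers (3 named, THY1 fell) overlapped, at 747 to 1737 and 746 to 1206, and the 2 lymphocyte markers lay at 5.84 to 43.4 and 2.82 to 3.70 with neither past the test. The 2 skeletal muscle markers stayed at or below 1.51 in every library. ADIPOQ and LEP were not analysed here. The part of these markers in the results below was not tested, and in whole tissue fewer cells of a type and less RNA per cell cannot be told apart.

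Back-splicing was spread over few reads in most of these genes. Of the 415 circRNAs, 265 (63.9%) were seen in 1 library and 151 rested on a single read, against 64.7% of the other 14575 circRNAs seen in 1 library. Only 11 were seen in all 6 libraries. By position, 379 (91.3%) were of the exon type, 34 of the exon-intron type and 2 of the intron type, and 22 (5.30%) were marked in the deposited table as published before, against 4.49% of the others. Reads were found in young tissue alone for 183 circRNAs (44.1%, against 47.2% of the others), in adult tissue alone for 119 (28.7%, against 28.2%) and in both for 113. The median distance between the junction ends was 10653 bases, from 193 to 210099.

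Several circRNAs of 1 gene often used the same splice site. In the 73 host genes with more than 1 circRNA, 298 of 378 circRNAs (78.8%) shared a start or an end with another circRNA of the gene. The most distinct circRNAs came from USP25 and USP40 with 21 each, UBR3 and USP34 with 17 each and UBR1 with 14. USP34 and USP25 were also high in reads, with 125 and 94. USP3 led in reads with only 4 circRNAs, and USP40 had 50 reads over its 21. Another 37 host genes gave a single circRNA.

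A few hosts carried most of the signal. USP3 alone held 16.6% of the members' reads, and the 10 leading hosts, with USP3, USP34, UBE2D3, USP25, USP33, FBXW4, UBE2Q2, UBR2 and UBR3 among them, held 50.5%. At the other end, 68 hosts had at most 10 reads and 17 had 1 read. Host reads followed the mRNA level weakly across the 110 genes (Spearman's rho 0.19, a description across genes that share libraries). The median mRNA level of the hosts was 18.5 FPKM, and 4 hosts, FBXL13, TRIM63, TRIM9 and FBXO43, lay under 0.5 FPKM.

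**Figure D1:**
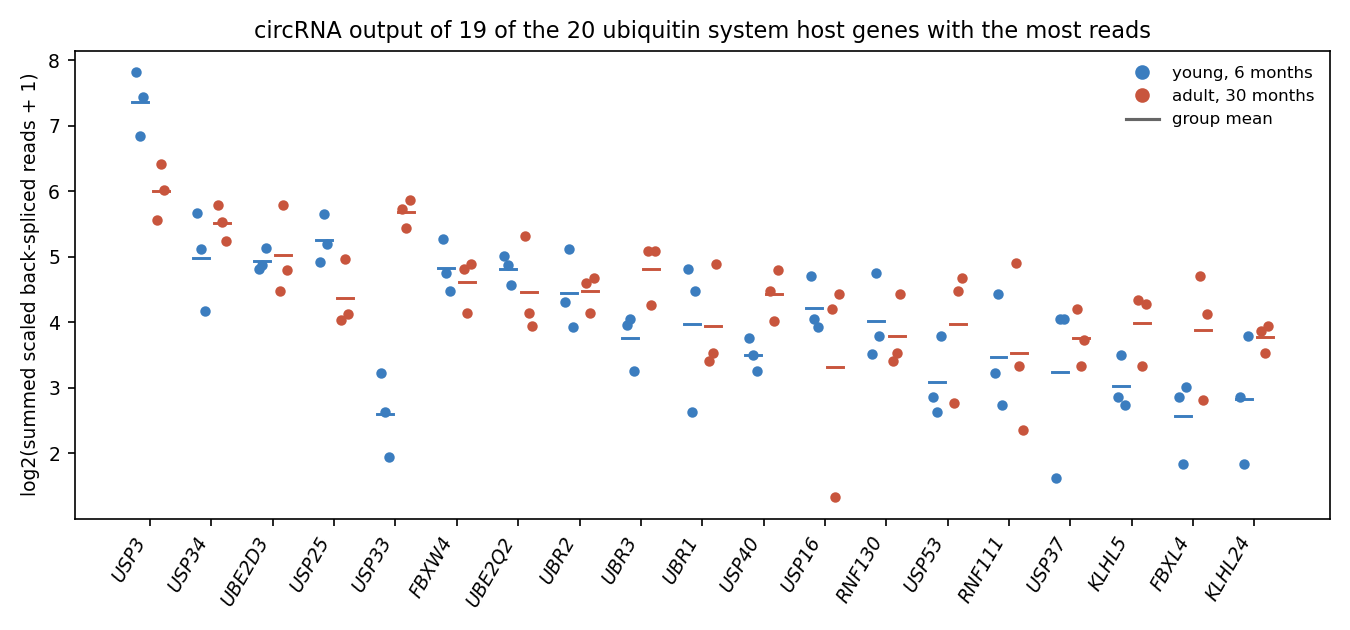
circRNA level of 19 of the 20 ubiquitin system host genes with the most back-spliced reads, as log2(summed scaled back-spliced reads + 1) on the vertical axis. Each point is 1 library (blue young, red adult) and each line is the group mean. USP3 sits lower in all 3 adult libraries and USP33 sits higher in all 3, while the groups overlap in most of the other genes.

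Deubiquitinases were the largest group, with 31 hosts, 173 circRNAs and 48.6% of the members' reads. USP33 and USP3 moved in opposite directions as sums over the host gene. USP33, which is known in human cells for acting on the β2-adrenergic receptor, had a circRNA level of 8.34, 5.18 and 2.84 in young replicates 1 to 3 and of 52.3, 42.5 and 57.6 in adult replicates 1 to 3. All adult libraries lay far above all young ones, with 83 reads against 8. The mean level was 9.31 times higher in adult tissue and the log2 fold change was 3.09 (SE 0.59, adjusted p = 0.00643, limma). USP3, a deubiquitinase of histones H2A and H2B, went the other way. Its level was 225, 114 and 172 in young and 46.5, 84.9 and 63.7 in adult libraries, without overlap. The mean was 2.62 times higher in young tissue and the log2 fold change was -1.36 (SE 0.35, adjusted p = 0.0409, limma).

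Across all host genes, 65 members had reads in at least 3 libraries and could be tested. One of them (1.54%) rose, against 0.67% of the 2090 hosts tested, and 1 (1.54%) fell, against 2.44%. The members' median log2 fold change was -0.22 and that of all hosts -0.40. The age groups did not overlap in 5 members that were higher in every adult library (7.69%, against 6.41% of all hosts) and in 7 that were lower (10.8%, against 17.8%). The calls were not equally firm. Without young replicate 2 or young replicate 3, the adjusted p of USP33 was 0.0643 and 0.118. USP3 passed in no fit with a library left out (adjusted p 0.0707 to 0.191). The p-values rest on 3 animals per age and on a variance that limma drew toward the trend over all hosts tested. The median prior degrees of freedom of this fit were 16.9, so the p-values do not reflect the spread between animals alone. Without the trend in the model, neither USP33 nor USP3 passed.

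The change of USP33 and USP3 sat in a few junctions. The main USP33 circRNA, at chr3:67179509-67187976, had 0, 2 and 2 reads in young and 18, 18 and 24 in adult libraries. A second USP33 circRNA from the same site, chr3:67179509-67181678, had 1, 0 and 0 reads in young and 4, 3 and 4 in adult libraries. Both lay higher in every adult library, and their log2 fold changes were 3.69 (SE 0.79, adjusted p = 0.0589, limma) and 2.39 (SE 0.88, adjusted p = 0.118, limma). The main USP3 circRNA, at chr10:46539106-46543226, was the most abundant of all members and ranked 9 among the 14990 circRNAs. It had 102, 41 and 106 reads in young and 22, 41 and 28 in adult libraries, which do not overlap once scaled. Its log2 fold change was -1.48 (SE 0.34, adjusted p = 0.0627, limma). The longer USP3 circRNA that ends at the same place, chr10:46513239-46543226, had 5, 3 and 15 reads in young and 2, 12 and 1 in adult libraries, and its groups overlapped.

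Tested as single circRNAs, no member passed the limma adjusted p of 0.05. Of the 73 members with reads in at least 3 libraries, 0 were called, against 0.882% of the 2834 circRNAs tested, and 13 had an unadjusted p under 0.05, against 22.1% of all. Their median log2 fold change was -0.00 and that of all circRNAs was -0.34. Every adult library was higher than every young one in 4 members (5.48%, against 6.46% of all) and lower in 11 (15.1%, against 18.5%). The 2 lowest adjusted p-values were those of the main circRNAs of USP33 and USP3 given above.

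**Figure D2:**
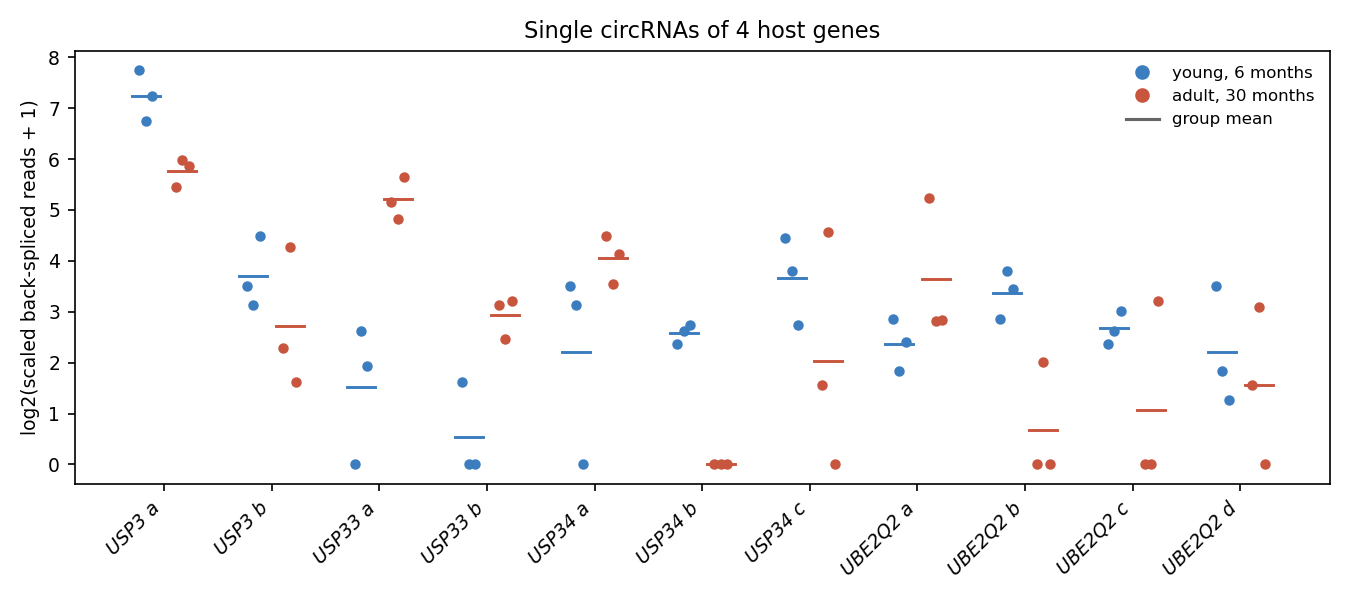
Single circRNAs of 4 host genes, as log2(scaled back-spliced reads + 1), with 1 point per library and the group mean as a line. USP3 a is the main and b the longer circRNA of USP3, USP33 a is the main and b the shorter circRNA of USP33, USP34 a is the distant circRNA and b and c are those with the shared end, and UBE2Q2 a, b, c and d are its junctions in the order of the text. USP33 a and b are higher in all 3 adult libraries, whereas the junctions within USP34 and within UBE2Q2 differ from each other in their order of young and adult.

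USP34, which in human cells deubiquitinates axin in the Wnt pathway, gave 125 reads, and its circRNAs did not share 1 pattern. The circRNA at chr11:59824864-59842548 had 5, 3 and 0 reads in young and 11, 7 and 8 in adult libraries. The one at chr11:59969362-59987610 had 2, 2 and 4 reads in young and none in adult libraries. Against a floor of 3 reads over the 3 adult libraries it was at least 2.73-fold lower in adult tissue. Neither passed the test (limma adjusted p = 0.31 and 0.0897). Another form with the same end, chr11:59976575-59987610, had 10, 5 and 4 reads in young and 1, 15 and 0 in adult libraries, with overlap. As a sum, USP34 lay at 33.6 ± 16.5 (SD, n = 3) in young and 45.6 ± 8.62 (SD, n = 3) in adult tissue, and the groups overlapped.

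Other deubiquitinases had lower counts. OTUD3, a deubiquitinase of the OTU type, made 1 circRNA, at chr2:133402406-133407694, with 4, 8 and 10 reads in young and 0, 0 and 4 in adult libraries. Every adult level was below every young level, by a thin margin in 1 pair of libraries, 8.22 against 8.34. The log2 fold change was -2.80 (SE 1.04, adjusted p = 0.123, limma). OTUD6B, another deubiquitinase of that type, had 2, 1 and 4 reads in young and none in adult libraries (at least 2.26-fold lower, adjusted p = 0.12, limma). USP31 had 0, 0 and 4 reads in young and 4, 5 and 8 in adult libraries (log2 fold change 2.54, SE 1.07, adjusted p = 0.167, limma). USP25 and USP40, the hosts with the most circRNAs, had levels of 38.0 ± 10.2 and 10.5 ± 2.00 in young and 20.8 ± 8.30 and 21.1 ± 5.78 in adult tissue (SD, n = 3). The ages did not overlap in USP40, and neither gene passed the test.

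Among the 10 E2 hosts, UBE2D3, an E2 that works with many ligases, led through 1 circRNA at chr7:52444892-52454969. It had 11, 8 and 24 reads in young and 11, 34 and 13 in adult libraries, and the level of UBE2D3 as a sum was 29.9 ± 3.70 and 34.2 ± 17.9 (SD, n = 3). The groups overlapped. UBE2Q2 was the E2 with the most circRNAs, 7 in all. In the 4 with the most reads, both of the starts 31660369 and 31671272 on chromosome 21 were joined to both of the ends 31680231 and 31690348. The outer start with the inner end (a) had 3, 1 and 3 reads in young and 19, 4 and 3 in adult libraries. The inner start with the inner end (b) had 3, 5 and 7 reads in young and 0, 2 and 0 in adult libraries. The outer start with the outer end (c) had 2, 2 and 5 against 0, 0 and 4, and the inner start with the outer end (d) had 5, 1 and 1 against 1, 5 and 0. Of these 4, only the second did not overlap between the ages (log2 fold change -2.70, SE 0.89, adjusted p = 0.0897, limma). The sum over UBE2Q2 was 27.5 ± 4.36 in young and 23.3 ± 13.4 in adult tissue (SD, n = 3).

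The UBR ligases, which include the N-recognins that read the first residue of a protein, gave 50 circRNAs and 11.7% of the members' reads from only 5 genes. Their summed level was 81.4, 77.7 and 83.8 in young and 77.5, 81.9 and 98.7 in adult libraries, and the ages overlapped. UBR2, an N-recognin, had most of its reads at chr23:16344530-16345293, with 7, 10 and 8 in young and 8, 7 and 8 in adult libraries. The ages overlapped. The level of UBR3 was 14.6, 15.5 and 8.53 in young and 32.9, 18.2 and 32.9 in adult libraries, without overlap (log2 fold change 1.06, SE 0.57, adjusted p = 0.318, limma). Its main circRNA, chr2:26519709-26529282, had 3, 1 and 2 reads in young and 11, 5 and 9 in adult libraries (adjusted p = 0.177, limma). UBR1, the other classical N-recognin, lay at 17.9 ± 11.4 and 16.4 ± 10.8 (SD, n = 3). The U-box ligases UBE4B and UBE4A, which lengthen ubiquitin chains, had 33 and 8 reads, with overlap in both.

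The F-box proteins and cullins belong to ligases in which a cullin is the scaffold. F-box proteins bind the substrate in some of these ligases, and the cullin hosts named below use other substrate-binding proteins. FBXW4 led the F-box hosts with 82 reads, and its 2 main circRNAs, both listed as published, shared the end 22294470 on chromosome 26. The longer, from 22284661, had 5, 4 and 9 reads in young and 12, 5 and 10 in adult libraries. The shorter, from 22290544, had 13, 6 and 6 against 2, 6 and 3. The ages overlapped in both, and FBXW4 as a sum lay at 28.3 ± 8.37 and 24.2 ± 6.56 (SD, n = 3). FBXW8, a partner of the cullin CUL7, had 9, 0 and 9 reads in young and 2, 0 and 3 in adult libraries, with overlap. FBXL4, which restrains mitophagy in human and mouse cells, had 9 and 25, with overlap. FBXL20 had reads in 2 adult libraries alone, 3 and 4. FBXO11, which targets the transcription factor BCL6 in human cells, had 4, 2 and 17 reads in young and 4, 1 and 2 in adult libraries, so most young reads came from 1 library and the ages overlapped. Its circRNA at chr11:30009810-30011923 had 2, 1 and 4 reads in young and none in adult libraries (at least 2.26-fold lower, adjusted p = 0.0897, limma). FBXO42 had 8 and 6 reads. Of the cullins, CUL2, the scaffold used by VHL, had 9 and 11 reads and CUL5, the scaffold used by SOCS box proteins, 6 and 7. No host of either kind passed the test as a sum.

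KLHL5 and KLHL24, of the BTB-Kelch family that links substrates to the cullin CUL3, had 11 and 13 reads in young and 25 and 21 in adult tissue. Both had overlapping levels. Of the RING finger hosts, RNF130 and RNF111 led with 46 and 39 reads. RNF111, a ligase that strengthens TGF-β signalling, had levels of 8.34, 20.7 and 5.68 in young and 29.1, 9.10 and 4.11 in adult libraries, with wide overlap. RNF10 had no read in young and 2, 1 and 1 reads in adult libraries, and did not pass the test (limma adjusted p = 0.163).

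TRIM37 stood out among the TRIM hosts. It is a ligase that acts at centrosomes and peroxisomes, and its loss causes a growth disorder in humans. Its 4 circRNAs had 5, 3 and 9 reads together in young and none in adult libraries. Against the floor of 3 reads over the adult libraries, the level of TRIM37 was at least 5.63-fold lower in adult tissue, with a limma adjusted p of 0.0645. The mRNA of TRIM37 was 4.46, 5.02 and 4.13 FPKM in young and 3.55, 4.82 and 5.66 FPKM in adult libraries, with overlap. TRIM24, a chromatin reader and ligase, had 7, 1 and 4 circRNA reads in young and 0, 2 and 1 in adult libraries, with overlap. The other 8 TRIM hosts were sparser. Of the 110 hosts, 30 had reads in young tissue alone, 12 in adult tissue alone and 68 in both. Many of the hosts seen at 1 age rested on 3 reads or fewer, and the share over all hosts is not given here.

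The mRNA of 23 of these genes passed the test. Of 106 members with a mean of at least 0.5 FPKM, 19 (17.9%) rose in adult tissue, against 10.5% of the 14695 genes and transcripts tested and 11.4% of the named host genes. A further 4 (3.77%) fell, against 9.3% of all tested and 7.11% of the named host genes. The members' median log2 fold change was 0.19, that of all tested 0.01 and that of the named host genes 0.11. Every adult library was higher in 37 members (34.9%, against 22.3% of all) and lower in 16 (15.1%, against 20.4%).

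Among the deubiquitinases, 2 mRNAs of 31 rose and 2 fell. USP14, which trims ubiquitin from substrates at the proteasome, was at 15.9, 16.3 and 19.2 FPKM in young and 83.5, 60.9 and 51.8 FPKM in adult libraries. The groups were far apart, and the log2 fold change on the scale of log2(FPKM + 1) was 1.85 (SE 0.23, adjusted p = 0.00273, limma). The mRNA named USP9Y was at 43.0, 33.1 and 56.2 FPKM in young and 110, 132 and 103 FPKM in adult libraries (log2 fold change 1.39, SE 0.24, adjusted p = 0.0105, limma). Its circRNAs lay on chromosome X of the cattle assembly, and the buffalo RefSeq annotation (NDDB_SH_1) held no gene of that symbol but a USP9X. USP9Y is thus an uncertain name, and whether reads of similar genes were mixed here was not tested. USP3 fell at the mRNA level too, from 10.98, 24.7 and 12.8 FPKM in young to 4.65, 6.84 and 7.44 FPKM in adult libraries (log2 fold change -1.17, SE 0.33, adjusted p = 0.0477, limma). OTUD3 fell from 12.9, 11.2 and 9.93 FPKM to 3.08, 5.17 and 4.86 FPKM (limma adjusted p = 0.0139, with a log2 change of -1.22 and an SE of 0.23). The age groups of all 4 genes were separate. USP33 mRNA was 21.2 ± 3.22 FPKM in young and 29.1 ± 3.95 FPKM in adult tissue (SD, n = 3), higher in every adult library, and did not pass (adjusted p = 0.166, limma).

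Of the 10 E2 enzymes, 4 rose and 1 fell. UBE2J1, an E2 of the endoplasmic reticulum that serves the degradation of misfolded proteins, went from 10.9, 10.04 and 11.2 FPKM in young to 23.6, 19.4 and 25.7 FPKM in adult libraries (log2 fold change 1.02, SE 0.19, adjusted p = 0.0121, limma). UBE2G2, an E2 of the same degradation route, rose by 1.17 on the log2 scale, UBE2R2, a partner of cullin ligases, by 0.79, and UBE2Q2 by 0.65. The symbol UBE2G2 was not matched in the RefSeq table. UBE2D1 fell from 8.21, 10.3 and 7.82 FPKM in young to 4.62, 5.16 and 3.42 FPKM in adult libraries (log2 fold change -0.86, SE 0.22, adjusted p = 0.0338, limma). Among the ligases, UBE4A rose by 0.76 on the log2 scale and UBR4, an N-recognin, by 0.92. All 5 UBR mRNAs and all 5 cullin mRNAs had a positive fold change, with medians of 0.49 and 0.48, but among these only UBR4 passed. The change of CUL3 was only 0.02, and 50.7% of all genes and transcripts tested had a positive change.

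Of the 22 RING finger mRNAs, 7 rose and 1 fell. RNF125, a ligase that limits the RNA sensor RIG-I in human cells, had the largest rise, from 5.51, 8.54 and 11.3 FPKM in young to 104, 54.8 and 21.4 FPKM in adult libraries. The adult libraries spread widely, and the log2 fold change was 2.48 (SE 0.55, adjusted p = 0.0227, limma). RNF10 rose from 26.2, 27.9 and 37.0 FPKM to 103, 98.3 and 86.3 FPKM (limma adjusted p = 0.00297, with a log2 change of 1.64 and an SE of 0.20). RNF130, a membrane-bound ligase, rose from 38.8, 46.5 and 48.9 FPKM to 108, 106 and 97.6 FPKM (limma adjusted p = 0.0064, with a log2 change of 1.20 and an SE of 0.18). In RNF10 and RNF130 the libraries of each age lay close together. RNF141 rose by 1.38 on the log2 scale (adjusted p = 0.00926, limma), and RNF170, a ligase for inositol trisphosphate receptors, RNF121 and RNF14 rose by 1.08, 1.05 and 0.75. RNF220 fell from 37.3, 75.3 and 34.02 FPKM to 21.6, 22.1 and 16.3 FPKM (limma adjusted p = 0.0462, with a log2 change of -1.17 and an SE of 0.33).

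Of 16 F-box mRNAs, FBXO28 and FBXO21 rose, by 0.92 and 0.89 on the log2 scale. Of 7 BTB-Kelch mRNAs, KLHL2, an adaptor for WNK kinases, and KLHL5 rose, by 0.71 and 0.69. None of the 5 cullin and 8 TRIM mRNAs passed the limma test. The medians of the TRIM and deubiquitinase mRNAs were -0.01 and -0.05. Relative to the median of all genes tested they lay at -0.02 and -0.06, and at -0.03 and 0.01 when every library was scaled to the same FPKM total.

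**Figure D3:**
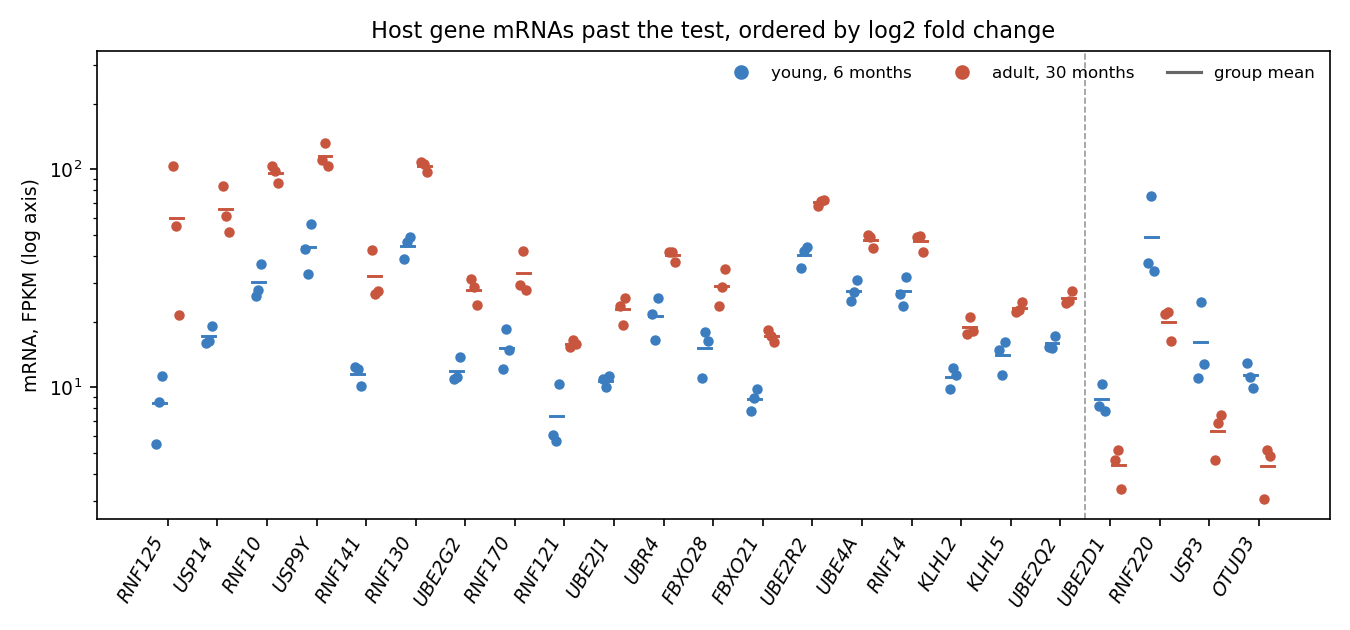
mRNA level of the 23 ubiquitin system host genes past the limma test, in FPKM on a log axis, with 1 point per library (blue young, red adult) and the group mean as a line. The 19 genes left of the dashed line rose and the 4 to the right fell. In all 23 the young and adult libraries are separate, and RNF125 has the widest adult spread.

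The scale of FPKM touched these counts. The FPKM of all transcripts summed to 1093382 to 1237794 in young and 657311 to 721755 in adult libraries, and the number of fragments behind a value is unknown. Scaling each library to the same total moved the median of all genes tested from 0.01 to 0.62, and the members then split into 69 higher and 0 lower. Relative to that median, all 23 mRNAs kept their sign, with log2 fold changes of 0.74 to 2.56 for those that rose and of -1.21 to -0.86 for those that fell. With the same median in every library, 24 were higher and 2 lower. Leaving out young replicates 1, 2 and 3 in turn, 9, 16 and 18 of the 23 calls were kept, and leaving out adult replicates 1, 2 and 3, 6, 6 and 8. USP14, RNF10, RNF130 and RNF141 passed in each of these 6 fits, and USP3 and UBE2D1 in none (adjusted p 0.0663 to 0.154 and 0.052 to 0.107).

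The circRNA level was then set against the mRNA of the same gene within each library. This asked whether the circRNA changed by another amount than its host mRNA, over 2080 hosts with both measurements. The mRNA value can hold reads from inside the circRNA, and their part was not tested. Of the 64 members tested, 1 (1.56%) was called, against 1.59% of all hosts. TRIM37 was that gene. Its circRNA fell relative to its mRNA by 3.50 on the log2 scale (SE 0.79, adjusted p = 0.0262, limma). The call was lost without young replicate 1, 2 or 3 (limma adjusted p = 0.17, 0.124 and 0.136) and without adult replicate 2 (limma adjusted p = 0.0511). The members' median was -0.20 and that of all hosts -0.51.

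Other members had wide differences between circRNA and mRNA that did not pass the test. USP33 had a log2 difference of 2.64 (SE 0.79, adjusted p = 0.0884, limma) and USP31 one of 2.598 (SE 0.90, adjusted p = 0.135, limma), as USP31 mRNA stood at 6.64 ± 1.497 and 6.26 ± 0.847 FPKM (SD, n = 3). UBE2J1 had 1, 2 and 1 circRNA reads in young and none in adult libraries while its mRNA rose, and the log2 difference was -2.86 (SE 0.91, adjusted p = 0.107, limma). OTUD6B and TRIM24 had differences of -2.08 and -2.12 (limma adjusted p = 0.226 and 0.256). In these 5 genes the ratio did not overlap between the ages. USP3, whose circRNA and mRNA both fell, had a difference of -0.19 (SE 0.39, adjusted p = 0.848, limma).

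**Figure D4:**
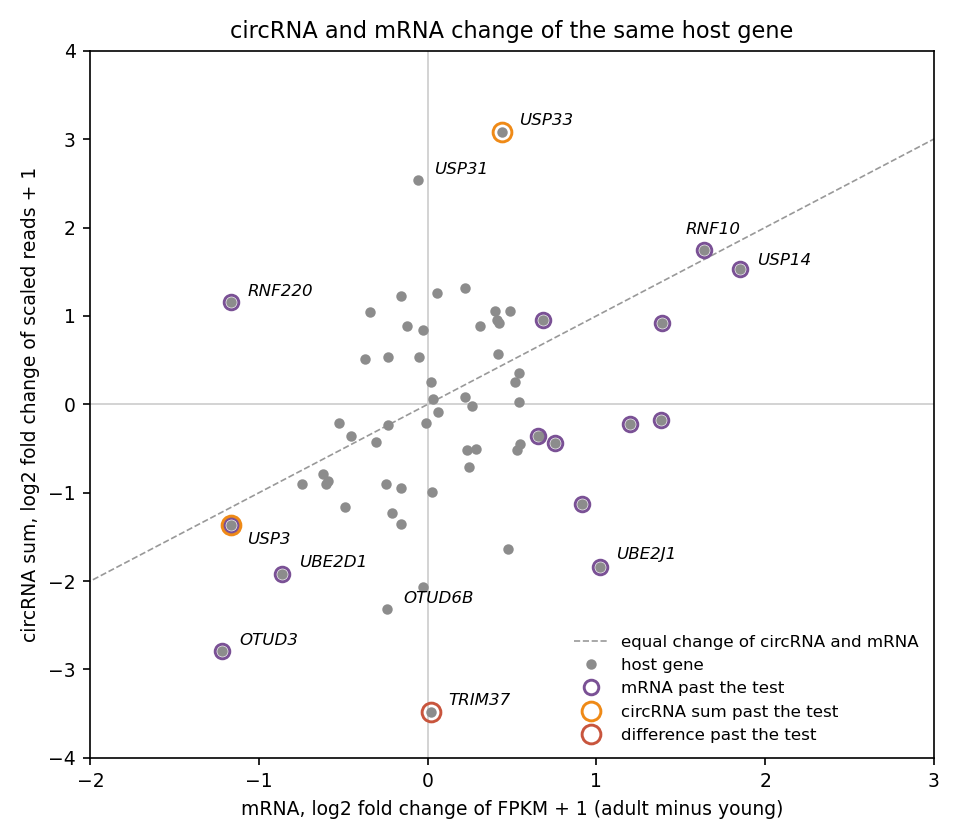
Change of the summed circRNA level (vertical axis, log2 fold change of scaled reads + 1) against the change of the host mRNA (horizontal axis, log2 fold change of FPKM + 1), adult minus young, with 1 point for each of the 64 host genes in both fits. The dashed line marks equal change. USP3 lies near the line, USP33 lies above it, and TRIM37 below it is the point farthest from it.

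Genes of the pathway outside these families were counted where the circRNA table named them as a host, and their counts stand beside the 10.5% of all genes tested that rose and the 9.3% that fell. Of the 5 E1 enzymes measured, 2 mRNAs rose, SAE1 of the SUMO pathway (12.4 ± 2.32 to 26.2 ± 1.05 FPKM, SD, n = 3) and ATG7 of autophagy (5.90 ± 0.65 to 10.1 ± 0.663 FPKM). Of the 52 proteasome genes and factors listed, 12 could be named and tested, of which 4 rose and none fell. PSMA6, a subunit of the catalytic core, went from 51.4 ± 11.7 to 134 ± 12.01 FPKM, and PSMD1, PSMD11 and PSMD14, subunits of the regulatory particle to which USP14 binds, rose by 1.26, 0.96 and 1.28 on the log2 scale. Of 25 HECT and RBR ligases, HACE1 rose. Of 28 cullin adaptors and regulators, COPS5 of the COP9 signalosome rose and DCAF6 fell. Of 11 other deubiquitinases, UCHL3 and CYLD rose and STAMBPL1 and BRCC3 fell, and of 8 SUMO pathway genes PIAS1 fell. As circRNA sums, 20 HECT and RBR ligases were tested, and the HECT ligase HUWE1 fell (87.6, 64.8 and 71.04 in young and 5.81, 21.2 and 41.1 in adult libraries, limma adjusted p = 0.0496). Over all 2090 hosts tested as sums, 2.44% fell. Without the trend in the model 9 of these hosts passed in either direction, against 65 with it. How the HUWE1 call held with a library left out is not given here. No other gene of the lists given here passed the limma test as a circRNA sum.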

How the data were processed

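Subcutaneous adipose tissue of 3 young and 3 adult buffaloes gave 1 total RNA library each, and groups came from the age labels. Trimming by the authors used Trim Galore, alignment used STAR against the cattle build UMD3.1, and CIRCexplorer2 found the back-spliced junctions. For circRNAs the authors deposited log2(x + 1), x being back-spliced reads multiplied by a factor particular to each library. On the linear scale, 100% of x were integer multiples of the factor, which gave back the reads by division. The deposited mRNA and lncRNA values are log2(FPKM + 1) per transcript. TopHat2 2.0.14 and Cufflinks also appear in the labels, with no role given. Columns of the authors' group means, fold changes and p-values were not used.

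circRNA levels were summed per host symbol, and FPKM over the transcripts that the circRNA table lists for it. Adult minus young was fitted over whole tables by limma (version 3.58.1, R 4.3.3) using eBayes and a mean-variance trend, with Benjamini-Hochberg adjustment, a threshold of 0.05 and a pseudocount of 1. A circRNA or host was tested if 3 or more of the 6 libraries held a read of it, and an mRNA if its mean reached 0.5 FPKM. Fold changes of low values are understated on this scale. A group without reads was given a floor of 3 reads over its 3 libraries. The steps were tested on simulated data. Alternatives changed the pseudocount, filter, scaling, variance model and transcripts used, left out each library in turn and took the replicate number as a block.

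The genes named are the leading circRNAs and hosts by reads within each family, the hosts with the most circRNAs, the members past the threshold (up to 6 per direction with the largest change where more than 12 passed) and those with the largest change without overlap. The other mRNAs past the threshold, the further junctions of USP34 and UBE2Q2 and the 4 hosts of low FPKM were named after their values were seen. Members and lists were chosen with earlier results of these data known. Of the 110 symbols, 107 were found in the buffalo RefSeq table, and RNF219, UBE2G2 and USP9Y were not. Some genes of these families and lists are not reported here by name.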

Additional observations from a re-analysis of the deposited data

How the results depend on the processing

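The 46 single results were each compared with the alternatives tried for their fit. Of these comparisons, 461 kept the direction and side of the threshold, which includes results that passed in neither fit. In 126 comparisons a call was lost, in 7 a result newly passed the threshold and in 0 the direction reversed. As single circRNAs, 1 member was higher (USP33) and 1 lower (USP3) with a pseudocount of 5, with reads required in 2 libraries, without a filter and with the replicate block. Except with the pseudocount, limma's prior degrees of freedom were then 829 or more, so the variance of each circRNA was almost that of the fitted trend. As host sums, 0 were lower with the same total per library, and 0 were higher and 0 lower without the trend. Leaving out 1 library gave 0 to 1 higher and 0 to 1 lower. For mRNA, 19 higher and 4 lower became 69 and 0 with the same FPKM total per library, 24 and 2 with the same median, and 8 and 0 with the replicate block. The count of lower mRNAs was 2 with a mean of at least 0.1 FPKM, 1 without a filter and 2 without the trend. Leaving out 1 library gave 5 to 19 higher and 0 to 4 lower mRNAs. For circRNA minus mRNA, 2 were higher and 2 lower with a pseudocount of 5, 0 were lower without the trend, and leaving out 1 library gave 0 to 1 lower. Pairing by replicate number was not stated in the sources used here. The deviations of same-numbered libraries correlated at 0.02 to 0.04 for circRNAs, against -0.020 to -0.004 for libraries of other numbers. For mRNA they correlated at -0.13 to -0.03, against -0.03 to 0.10. Correlations this weak cannot decide whether libraries of the same number share a batch or other factor. Except for the losses named here, the replicate block left the calls of the host sums and of circRNA minus mRNA in place. In these block fits limma's prior degrees of freedom were infinite, so the variance of each host was that of the fitted trend. Depth limits most hosts, since 68 of 110 had at most 10 reads over 6 libraries.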

Other observations

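Long noncoding RNAs (lncRNAs) had been assigned by the authors to transcripts of some of the same genes, 19 in all, of which 13 were intronic and 6 antisense. Their values are given as measured, without a test. An lncRNA antisense to UBR3 was at 6.07, 10.5 and 8.33 FPKM in young and 14.02, 30.3 and 19.7 FPKM in adult libraries, and an intronic one of UBR3 at 2.15, 3.93 and 3.53 FPKM and 5.09, 4.66 and 6.11 FPKM. An lncRNA antisense to FBXW2, an F-box protein, was at 0.505, 0.66 and 1.83 FPKM in young and 4.02, 2.81 and 3.44 FPKM in adult libraries, and an intronic one of TRIM24 at 2.38, 2.84 and 3.22 FPKM and 4.43, 4.61 and 5.05 FPKM. These 4 of 19 (21.1%) were higher in every adult library, against 11.8% of all 9494 lncRNAs. One of the intronic lncRNAs of USP15, a deubiquitinase, was lower in every adult library (1 of 19, or 5.26%, against 10.4% of all), at 6.39, 6.65 and 3.94 FPKM in young and 3.80, 3.57 and 3.86 FPKM in adult libraries. The ages overlapped in the other 14.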
